A study of Bos taurus with 6 samples.

Results

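Expression of 5 inflammation genes was followed over 6 arrays of bovine mesenchymal stem cells (MSCs) from marrow, embedded in agarose: the cytokine IL6, the chemokines CCL2 and CXCL5, the pentraxin PTX3 and the inducible nitric oxide synthase NOS2. The members are the 5 genes with these symbols, of 9155 genes with a named probe set, and they were represented by 9 of the 24016 probe sets that are not controls. CCL2 had 2 probe sets, NOS2 had 4 and the other genes had 1 each. In the RefSeq gene table the gene named CXCL5 here also carries the older names CXCL6 and GCP2, so the bovine symbol covers a pair of names that are separate genes in people.

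All constructs were kept in defined medium. Constructs lacking the growth factor TGF-beta3 were taken at days 3, 21 and 42, and constructs given it at days 21 and 42. A further construct, also given TGF-beta3, was harvested at day 42 after dynamic compression during the final 21 days. TGF-beta3 drives MSCs towards cartilage cells, and the study asked what this factor and compression do to MSCs in agarose, a gel that carries load to the cells. There was 1 array for each of the 6 conditions, so no condition had a replicate and precision is limited by this number of arrays. The sources used here do not give whether a construct held cells of 1 animal or of several pooled.

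Inflammatory stimuli act on stromal cells through receptors that switch on the transcription factor NF-kB, which with C/EBP factors and AP-1 drives transcription of cytokines, chemokines and NOS2. IL6 is a secreted cytokine that signals through STAT3. CCL2 carries monocytes into tissue and CXCL5 carries neutrophils, PTX3 is a secreted pattern recognition protein that binds complement components and stabilises hyaluronan-rich matrix, and NOS2 makes nitric oxide from arginine. In cartilage, IL6 and nitric oxide are known from inflamed joints, and MSCs are known as a source of CCL2 and IL6.

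Each value is a linear signal intensity for a probe set, as deposited by the authors, and a signal under 15.1 is treated as under the floor, a level set at the 40th percentile of all values below which signals are not ordered. "Higher" and "lower" refer to a difference of at least 2-fold (1 on the log2 scale) between a pair of arrays, with signals under the floor set to it, and carry no test. "Rose" and "fell" refer to a limma test of TGF-beta3 over days 21 and 42, on 4 arrays with a term for day, at an adjusted p under 0.05. Probe sets of different genes have different brightness, so signals are compared only within a gene.

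The arrays also differed in their controls. Hybridisation spikes, which are foreign transcripts added in fixed amount, had median signals of 7304 (unloaded) and 5823 (loaded) at day 42 under TGF-beta3, and of 2618 to 3727 on the other 4 arrays. Relative to the day 42 array without TGF-beta3, the spikes of the unloaded array with it were 1.39 higher on the log2 scale. The labels were checked against markers. The 6 measured cartilage markers all rose with TGF-beta3, and of 8 marrow stromal markers NT5E, ENG and PDGFRB were above the floor on every array, while LEPR was under it on every array. Of the 6 stromal markers tested NT5E rose, and CXCL12 and VCAM1 fell. CXCL12 and VCAM1 were under the floor on both arrays with TGF-beta3 in the fit, so only a fall could be called for them. The cartilage marker CHAD was under it on both arrays without TGF-beta3 in the fit, so only a rise could be called for it.

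**Figure D1:**
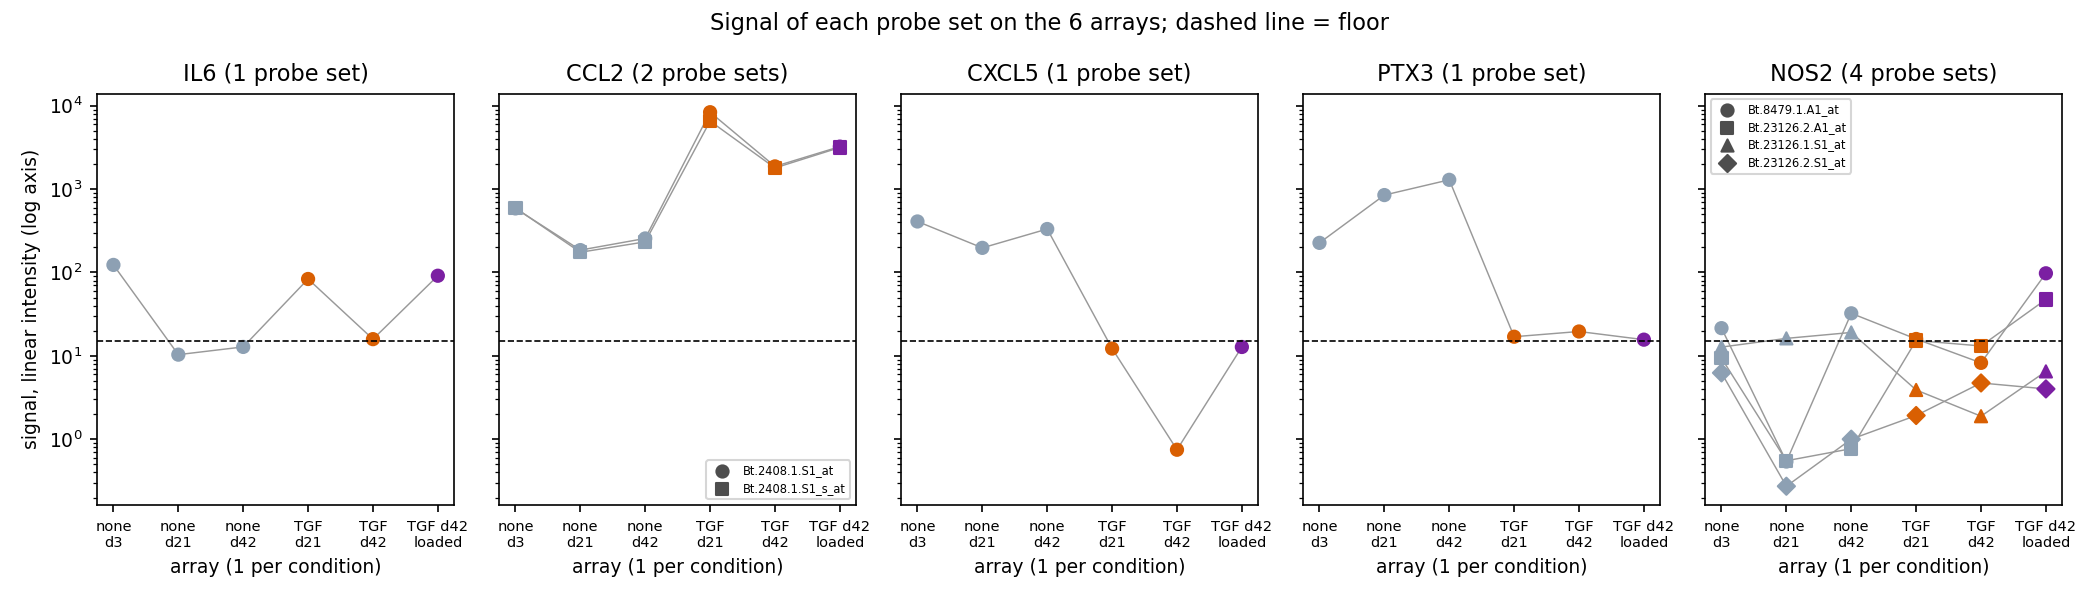
Signal (linear intensity, log axis) of the 9 probe sets on the 6 arrays, 1 array per condition; thin lines join values of 1 probe set and the dashed line is the floor of 15.1. CCL2 lies at 1794 or more on the 3 arrays with TGF-beta3 and at 595 or less on the others. CXCL5 and PTX3 go the other way. IL6 does not divide by TGF-beta3, nor does any NOS2 probe set once signals under the floor are set to it.

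CCL2, the monocyte chemokine, was much higher on every array with TGF-beta3. Its brighter probe set gave signals of 587, 186 and 256 without TGF-beta3 at days 3, 21 and 42. With TGF-beta3 it gave 8365 at day 21, 1873 at day 42 unloaded and 3233 at day 42 loaded. The 3 arrays with TGF-beta3 thus lay above the 3 without, as did 14.6% of the 18825 probe sets that exceeded the floor on any array. The second CCL2 probe set gave 595, 175 and 233 without TGF-beta3, and 6545, 1794 and 3156 with it in the same order, so the order of the 6 arrays was the same. On the brighter probe set the difference at day 21 was log2 5.49, the third highest of 12546 probe sets above the floor on both arrays. At day 42 it was log2 2.87, rank 160 from the top of 11881. CCL2 rose, with a mean log2 difference of 4.18 ± 0.38 (SE, adjusted p = 2.4e-12 by limma) and 4.09 ± 0.37 on the second probe set (adjusted p = 2.3e-12 by limma). These SEs come mainly from the spread of other probe sets and do not show how far apart the 2 days lay. With no filter on low signal the SE was 0.96 on the brighter probe set.

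PTX3 showed the opposite pattern. It gave signals of 227, 848 and 1292 without TGF-beta3 at days 3, 21 and 42, and 17.0, 19.6 and 15.6 with it at day 21, day 42 unloaded and day 42 loaded. Each of the 3 arrays with TGF-beta3 lay just above the floor and below every array without it, and 12.7% of the same 18825 probe sets were likewise lower on those 3 arrays. The difference ranked 8 from the bottom of 12546 at day 21 and 10 from the bottom of 11881 at day 42. PTX3 fell, with a mean log2 difference of -5.84 ± 0.53 (SE, adjusted p = 1.8e-12 by limma). Because the values with TGF-beta3 lie near the floor, a higher floor shortens this difference, to a mean of -3.39 for a floor of 100.

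CXCL5, the neutrophil chemokine, was above the floor only on the 3 arrays without TGF-beta3. It gave 409, 197 and 332 at days 3, 21 and 42 without the factor. With it, the signals of 12.2, 0.749 and 12.8 (day 21, day 42 unloaded and day 42 loaded) were under the floor and have no order. The groups did not overlap, as in the 12.7% of 18825 probe sets that were lower on those 3 arrays. With the 3 values given TGF-beta3 set to the floor, this restates that the other 3 were above it. At least 13.0-fold (day 21) and 21.9-fold (day 42) separated the groups. CXCL5 fell, with a mean log2 difference of -4.08 ± 0.71 (SE, adjusted p = 2.2e-05 by limma). Both of its arrays with TGF-beta3 in that fit were set to the floor, and it passed the filter through the arrays where it is high, so only a fall could be called and its size moves with the floor. Raising that floor to a signal of 100 gave -1.36.

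All 5 genes were tested, and CCL2 rose, PTX3 and CXCL5 fell and 2 were not called, where 7.11% of 6835 genes rose and 7.7% fell. Over probe sets, 7 of the 9 passed the filter (a signal over the floor on 2 or more of the 4 arrays), 2 rose and 2 fell, beside 5.84% and 7.33% of 14839 (866 and 1088, a split of 488 and 1008 under median centring). The 5 genes were chosen for this report with earlier results of these data known, so the counts describe them and support no statement about a list. With 1 residual degree of freedom for a probe set, the test took its spread mainly from other probe sets of like brightness, not from separate cultures. Without the day term the adjusted p was 0.0295 for CCL2, 0.0228 for CXCL5 and 0.00391 for PTX3 (limma), and with no filter on low signal none of the 3 was called (0.579, 0.534 and 0.518).

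Some markers of other cells also differed with TGF-beta3. Of 11 measured myeloid and blood cell markers, 8 were tested, of which AIF1, CD53 and CD68 fell, none rose and the rest were not called. The summed signal of the 11 was 301 to 628 without TGF-beta3 and 72.7 to 164 with it. AIF1, CD53 and CD68 were under the floor on all 3 arrays with TGF-beta3, and ITGAM and CD3E on all 6. CSF1R went the other way (mean log2 difference 0.58, not called). It was above the floor only with TGF-beta3, at 17.5 at day 21 and 29.3 at day 42 unloaded. ITGB2 was above the floor only on the unloaded day 42 array with TGF-beta3, at 21.1. AIF1, CD53 and CD68 passed the filter through the arrays without it, so only a fall could be called for them. The 5 measured fat cell markers all fell, with a summed signal between 5057 and 15415 without TGF-beta3 and between 461 and 921 with it. Of these, ADIPOQ was under the floor on both arrays with TGF-beta3 in the fit, so only a fall could be called for it. Of 8 endothelial markers, CDH5, VWF, KDR and EMCN were under the floor on all 6 arrays and ERG rose. TEK was above the floor on 5 arrays and was not called (mean log2 difference -0.37). PECAM1 was above it only on the unloaded day 42 array with TGF-beta3, at 20.8, and TIE1 only on the loaded array, at 20.3. In such bulk samples fewer cells of a type and less RNA per cell cannot be told apart. The part of these cells in the falls of PTX3 and CXCL5 or the rise of CCL2 was not tested.

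IL6 did not follow TGF-beta3 alone. Its signal was 123 at day 3 without TGF-beta3, 83.6 at day 21 with it and 91.4 on the loaded array, but 15.9 on the unloaded day 42 array with TGF-beta3. At days 21 and 42 without TGF-beta3 it was 10.3 and 12.8, under the floor. The 6 arrays therefore fell into 3 at 83.6 or more, neighbours in that order differing by at most 1.35-fold, and 3 at or under 15.9, with a 5.27-fold step between. At day 21 IL6 was at least 5.52-fold higher with TGF-beta3, whereas at day 42 its difference was a bound of log2 0.07. The mean log2 difference of 1.27 ± 0.60 (SE) was not called (adjusted p = 0.162 by limma). When the loaded array replaced the unloaded, it was 2.53 ± 0.64 and passed (adjusted p = 0.00119 by limma).

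NOS2 was dim and its 4 probe sets disagreed. The brightest gave 21.5, 0.540 and 32.4 without TGF-beta3 at days 3, 21 and 42, and 15.9 at day 21, 8.25 at day 42 unloaded and 97.8 at day 42 loaded with it. The second gave 9.39, 0.552, 0.771, 15.3, 13.1 and 47.5 in the same order. On both, the loaded array was the highest of the 6. The third gave 12.7, 16.2, 19.1, 3.90, 1.89 and 6.51, above the floor only at days 21 and 42 without TGF-beta3, and the fourth was under the floor on all 6 arrays, at 6.25 or less. Thus 2 probe sets showed NOS2 on the loaded array and 2 did not. NOS2 did not pass the TGF-beta3 test on the brightest probe set, at a mean log2 difference of -0.51 ± 0.51 (SE, adjusted p = 0.572 by limma), nor on the third, at -0.22 ± 0.47 (adjusted p = 0.819 by limma).

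**Figure D2:**
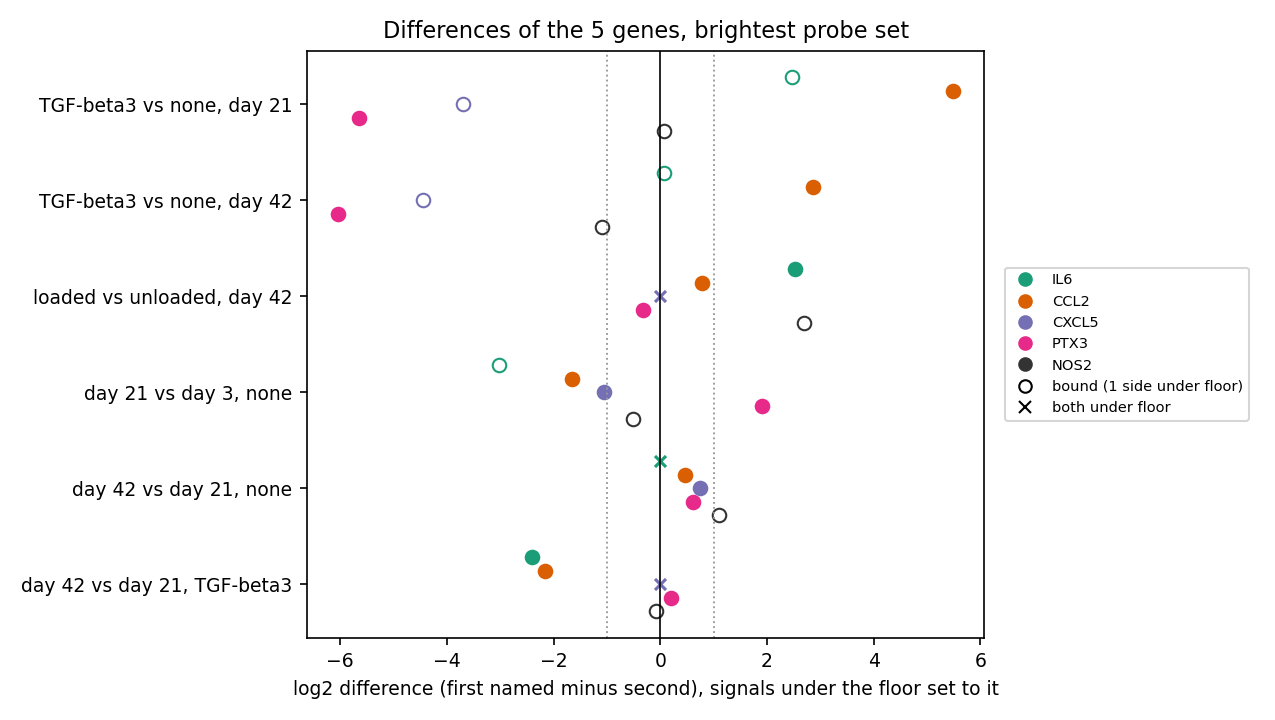
Log2 difference of each gene's brightest probe set in 6 comparisons of 1 array against 1 (first named minus second); filled points are measured on both arrays, open points are bounds with 1 array under the floor, crosses mark genes under the floor on both, and dotted lines mark a 2-fold difference. TGF-beta3 separates CCL2 (5.49 and 2.87) from PTX3 (-5.64 and -6.04), and IL6 (2.53) and NOS2 (at least 2.69) are past 2-fold under compression. IL6 is also past 2-fold with TGF-beta3 against none at day 21 (at least 2.46). The same holds for IL6 at day 21 against day 3 (-3.03, a bound) and day 42 against day 21 with TGF-beta3 (-2.40).

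Counted by size, at day 21 with TGF-beta3 against none 2 of the 5 genes were higher (14.3% of 6938 genes) and 2 lower (14%). At day 42, 1 was higher (25.5% of 7566 genes) and 3 were lower (15.7%), NOS2 being the third, on its brightest probe set (log2 -1.10, a bound) but not on the probe set measured only without TGF-beta3 (-0.33). Over probe sets 2051 (13.3%) were higher and 2429 (15.7%) lower at day 21, and 1580 and 3812 when the spikes were centred. At day 42 the figures were 4127 (24.5%) and 2734 (16.2%), against 2472 and 4820 under median centring and 1009 and 7945 with spikes centred, and the median over all probe sets went from log2 0.21 to -0.29 and -1.0. CCL2 kept a day 42 difference between log2 1.55 and 2.94 under the scalings, floors and its second probe set, and PTX3 and CXCL5 stayed lower, at -3.69 and -1.73 (log2) or beyond.

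IL6 was higher on the loaded than on the unloaded day 42 array, and so was NOS2 on its brightest and second probe sets. IL6 was 5.76-fold higher on the loaded than on the unloaded day 42 array (log2 2.53), rank 34 from the top of 13819 probe sets above the floor on both. NOS2 was at least 6.46-fold higher on its brightest probe set and at least 3.14-fold on the second, and was under the floor on both arrays on the other two. CCL2 was 1.73-fold higher (log2 0.79), or 1.76-fold on the second probe set, which did not reach 2-fold, and log2 1.11 with spikes centred, which did. PTX3 differed by log2 -0.33 and CXCL5 was under the floor on both arrays.

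Of the 4 genes compared under compression, 2 were thus higher (8.41% of 7703 genes) and none lower (7.41%). Over probe sets 1787 (10.2%) were higher and 1430 (8.2%) lower, and 2392 and 485 with spikes centred. There was 1 array on each side and no test. With the floor at the 60th percentile the differences of IL6 and NOS2 were log2 0.72 and 0.82 and no longer reached 2-fold, and neither gene exceeded a floor of 100. The spikes of the loaded array were lower than those of the unloaded one by 0.39 on the log2 scale. The 3 prime to 5 prime signal ratio, a measure of RNA and amplification quality, went from 4.95 to 7.52 for cyclophilin and from 2.15 to 1.80 for GAPDH. Their part in these differences was not tested. The summed myeloid marker signal was 164 on the unloaded and 121 on the loaded array, with 5 and 3 of the 11 measured markers above the floor and none higher by 2-fold on the loaded one.

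Without TGF-beta3, IL6, CCL2 and CXCL5 were lower and PTX3 was higher at day 21 than at day 3. From day 3 to day 21 IL6 went from 123 to under the floor, at least 8.14-fold lower, CCL2 was 3.16-fold lower and CXCL5 2.07-fold lower, while PTX3 was 3.74-fold higher. Over the same days 4 of 7 compared myeloid markers and 4 of 5 fat cell markers were higher and none was lower, and their summed signals went from 301 to 508 and from 5057 to 12730. Their part in the difference of PTX3 was not tested. Thus 3 of 5 genes were lower (4.72% of 6759 genes) and 1 higher (7.03%). CXCL5 stood at the threshold, at log2 -1.05, and at -0.54 with spikes centred. The splits over probe sets were 1081 (7.18%) higher and 783 (5.2%) lower, and 3207 and 335 with spikes centred. From day 21 to day 42 without TGF-beta3 CCL2, CXCL5 and PTX3 differed by log2 0.46, 0.75 and 0.61. IL6 was under the floor on both arrays, and NOS2 was higher by at least 2.14-fold on its brightest probe set but by log2 0.24 on the third. CXCL5 reached log2 1.12 under median centring. That made 1 of 4 genes higher (3.83% of 6684) and none lower (5.49%), with 485 probe sets (3.29%) higher and 1485 (10.1%) lower, 1368 and 850 under median centring and 798 and 923 under quantile normalization.

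With TGF-beta3, IL6 and CCL2 were lower at day 42 than at day 21. IL6 was 5.27-fold lower and CCL2 4.47-fold lower, 3.65-fold on its second probe set. These were 2 of 4 genes compared (11.1% of 7474 genes lower, 19.7% higher). PTX3 differed by log2 0.21. Over probe sets 3059 (18.1%) were higher and 2381 (14.1%) lower, 2012 and 3441 under median centring, and 522 and 7946 with spikes centred, the spikes themselves being 1.24 higher (log2) at day 42. The unloaded day 42 array serves this comparison, that with the day 42 array without TGF-beta3 and that with the loaded array, so these differences are not independent.

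Among other cytokines and chemokines more genes fell than rose. Of 41 listed ligands 31 had a named probe set and 17 were tested, of which 6 fell (7.7% of all 6835 genes) and 2 rose (7.11%). Of the 6 that fell, 5 were under the floor on both arrays with TGF-beta3 in the fit and passed the filter through the other arrays, so only a fall could be called for them. The median log2 difference of the 17 tested ligands was -1.20, against 0.13 over all genes. The 3 largest falls were those of CXCL13, which attracts B cells (-4.84 ± 0.66), CXCL12, the stromal chemokine that retains blood stem cells in marrow (-4.23 ± 0.70), and GRO1, a neutrophil chemokine like CXCL5 (-3.11 ± 0.72, adjusted p = 0.00138 by limma). GRO1 gave 143, 100.2 and 171 without TGF-beta3 at days 3, 21 and 42, was under the floor at days 21 and 42 with it, and was 27.8 on the loaded array. TNFSF13B, a B cell survival factor, rose by 3.23 ± 0.64. CCL19, a lymphocyte chemokine, rose by 2.0 ± 0.67 (SE, adjusted p = 0.0369 by limma). CCL19 was under the floor without TGF-beta3, so only a rise could be called for it. The inflammatory cytokines TNF, CSF2 and CSF3, named after their values were seen, were under the floor on all 6 arrays, and IL1B and IL1A were above it only on the unloaded day 42 array with TGF-beta3, at 16.8 and 25.6.

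**Figure D3:**
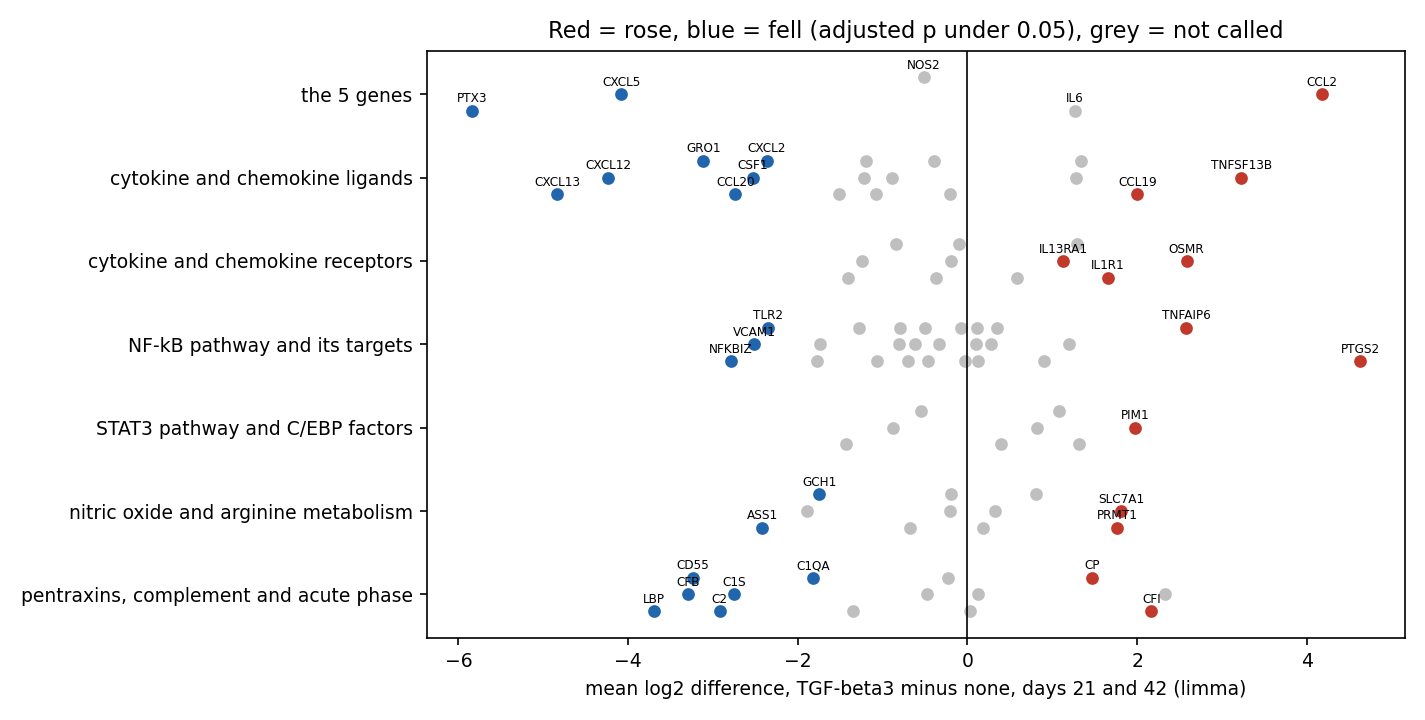
Mean log2 difference between arrays with and without TGF-beta3 over days 21 and 42 (limma, 4 arrays) for the 5 genes and the tested genes of 6 lists; each point is 1 gene, red rose, blue fell and grey was not called, and height within a row has no meaning. CCL2 lies at 4.18 on the right, PTX3 at -5.84 and CXCL5 at -4.08 on the left, and most called ligands lie on the left.

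In the receptor list, which also holds the receptor antagonist IL1RN, 11 genes were tested (16 of 30 listed had a named probe set). Of these 3 rose and none fell, beside 7.11% and 7.7% of all genes. The 3 were OSMR, the oncostatin M receptor (2.58 ± 0.69), IL1R1, the interleukin 1 receptor (1.66 ± 0.58), and IL13RA1 (1.13 ± 0.35), with adjusted p of 0.00653, 0.0467 and 0.0206 by limma. By size, OSMR differed by at least log2 4.36 at day 21 but by 0.81 at day 42, which did not reach 2-fold. IL1R1 and IL13RA1 did not reach 2-fold at day 21 (log2 0.94 and 0.70) but did at day 42 (2.37 and 1.55). IL6R, the ligand-binding IL6 receptor, was above the floor on 1 array, at 16.8. In the NF-kB list 2 of 25 tested genes rose and 3 fell, beside the same shares. PTGS2, the inducible cyclooxygenase, rose by 4.63 ± 0.69 and TNFAIP6, which modifies hyaluronan, by 2.58 ± 0.43, whereas NFKBIZ, a nuclear NF-kB cofactor known to drive IL6 (-2.79 ± 0.37), the adhesion molecule VCAM1 (-2.51 ± 0.70) and the receptor TLR2 (-2.36 ± 0.66) fell. PTGS2 was under the floor on both arrays without TGF-beta3 in the fit, and VCAM1 on both with it, so each could be called in 1 direction only. The median was -0.47 for this list. In the STAT3 and C/EBP list 1 of 8 tested genes rose (7.11% of all genes), the kinase PIM1 (1.98 ± 0.42).

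Genes around NOS2 and PTX3 went both ways. Of 11 genes of nitric oxide and arginine metabolism, 2 rose and 2 fell, beside 7.11% and 7.7% of all genes. ASS1, which remakes arginine from citrulline, fell by 2.42 on the log2 scale (SE 0.47), and GCH1, which starts synthesis of the NOS cofactor tetrahydrobiopterin, fell by 1.74 (SE 0.49). SLC7A1, an arginine transporter, rose by 1.81 ± 0.63 (adjusted p = 0.0449 by limma), and the arginine methyltransferase PRMT1 by 1.77 ± 0.49. In the pentraxin, complement and acute phase list 6 of 14 tested genes fell and 2 rose, beside 7.7% and 7.11% of all genes, with a median of -0.91. LBP, which presents bacterial lipopolysaccharide (-3.70 ± 0.67), complement factor B (CFB, -3.30 ± 0.64) and CD55, a complement inhibitor (-3.24 ± 0.72), fell most, and complement factor I (CFI, 2.17 ± 0.66) and ceruloplasmin (CP, 1.47 ± 0.35) rose. SLC7A1 and CFI were under the floor on both arrays without TGF-beta3 in the fit. CD55 and C1QA, another of the 6 genes that fell, were under it on both arrays with TGF-beta3. Each of these could be called in 1 direction only. The short pentraxins CRP and APCS, named after their values were seen, were under the floor on all 6 arrays.

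**Figure D4:**
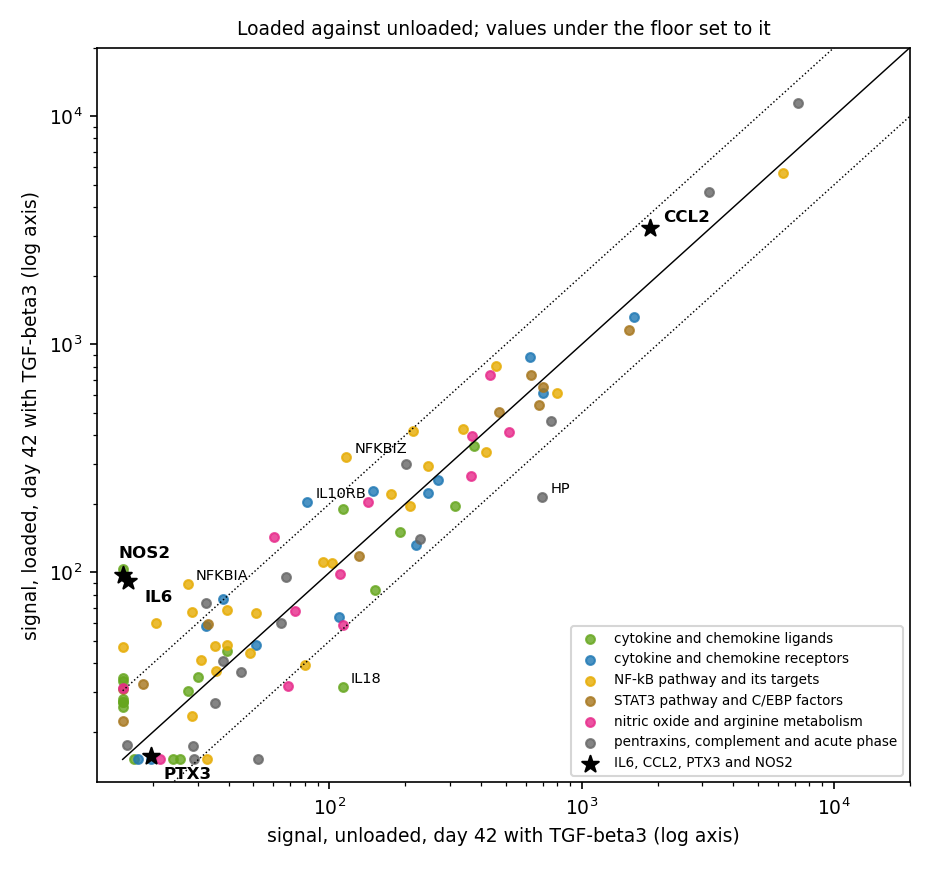
Signal on the loaded (vertical) against the unloaded (horizontal) day 42 array with TGF-beta3, both on log axes, values under the floor being drawn at it; stars are IL6, CCL2, PTX3 and NOS2, dots are genes of the 6 lists that exceed the floor on either array, the solid line marks equality and the dotted lines 2-fold. IL6 (91.4 against 15.9) and NOS2 (97.8 against 8.25, under the floor) lie at the upper left.

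Under compression 5 of 26 compared genes of the NF-kB list were higher (19.2%) and 2 lower (7.69%), beside 8.41% and 7.41% of all genes, with a median log2 of 0.31 against -0.04. Among them were NFKBIA, the inhibitor that NF-kB itself induces, at 27.4 unloaded and 89.2 loaded (log2 1.70), and NFKBIB (log2 1.56). NFKB2 was lower (log2 -1.02). Of 19 ligands 3 were higher, all bounds, and IL18 was lower, at 113 unloaded and 31.5 loaded. CXCL12, one of the 3 and named after its values were seen, was under the floor unloaded and at 104 loaded. In the receptor list 2 of 14 compared genes were higher and none lower, beside the same shares of all genes. They were IL10RB (log2 1.32) and IL1RN, the interleukin 1 receptor antagonist (log2 1.01, at the threshold). The arginine transporter SLC7A1 was at 60.4 unloaded and 142 loaded, and DDAH2, which degrades an inhibitor of NO synthases, at 68.3 and 31.9. Of the acute phase genes, LBP was higher (log2 1.19) and haptoglobin (HP) lower (log2 -1.70). None of these has a test.

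The genes whose pattern lay nearest to each of the 5 were found from the root mean square difference of log2 signals over the 6 arrays, each profile centred on its own mean, among 8948 other genes. For PTX3 they were PPARG, the fat cell transcription factor (0.29), SCARA5, a ferritin receptor (0.39), and CXCL13 (0.54). PPARG gave 193, 676 and 771 without TGF-beta3 at days 3, 21 and 42 and 17.9, 16.5 and 17.4 with it. For CXCL5 they were PERP (0.36), CD55 (0.41) and the selenium carrier SELENOP (0.49). For CCL2 they were thrombomodulin (THBD, 0.43), periostin (POSTN, 0.45) and urokinase (PLAU, 0.52), and PLAU gave 82.0, 33.1 and 30.3 without and 567, 203 and 655 with TGF-beta3. For IL6 they were TTYH2 (0.45), IGFBP4, which binds insulin-like growth factors (0.45), and TIMP3, a protease inhibitor (0.62). IGFBP4 gave 139, 42.1 and 29.8 without and 158, 39.3 and 125 with TGF-beta3, the last loaded. For NOS2 they were the glutamate transporter SLC1A1 (0.18), FBXO44 (0.26) and RHBG (0.34), all dim. Among the 5 themselves the nearest pair was CXCL5 and PTX3, at 1.06, and the farthest CCL2 and PTX3, at 4.61. These are descriptions over 6 arrays, with no test.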

How the data were processed

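Total RNA of 6 constructs was amplified with ribo-SPIA and hybridised to 1 Affymetrix bovine array each, per the labels' protocols. The authors deposited 1 linear signal intensity for each probe set. MAS5 is the tool in the submitters' processing notes. The sources used here do not give its version. The deposited signals already shared a common level: their mean, with 2% trimmed at each end, was 150.04 to 150.06 on every array. No further rescaling was applied, and signals under the floor (40th percentile, 15.1) were set to it before log2. After removal of 112 controls from 24128 probe sets, 13292 carried 1 gene symbol, 86 several and 10638 none. The 5 members matched RefSeq by Entrez identifier on all 9 probe sets. A gene with several probe sets is represented by its brightest (mean log2 over 6 arrays). A pair of arrays was compared where a probe set was above the floor on at least 1. TGF-beta3 was tested with limma 3.58.1 in R 4.3.3 (4 arrays, day term, variance trend, Benjamini-Hochberg over the 14839 probe sets exceeding the floor on 2 or more), with a prior worth 49.8 degrees of freedom, and the step was tested on simulated data. The p-values rest mainly on variance borrowed from other probe sets. A probe set's own part is how far its TGF-beta3 difference changed between the days. Neither need match the spread of separate cultures. Members and lists were chosen with earlier results of these data known. Named from each list were up to 3 genes per direction among those called, up to 2 per direction past 2-fold under compression and above the floor on both arrays, and the 3 genes nearest each member, leaving out placeholder symbols. Alternatives were other scalings, floors, filters, designs, probe sets and arrays left out. Promoter and protein sequences were not used here. Other steps ran in Python 3.11.15 with pandas 2.3.3 and numpy 2.4.6, and figures in matplotlib 3.10.9.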

Additional observations from a re-analysis of the deposited data

Results flagged for a closer look

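On its brightest probe set NOS2 differed with TGF-beta3 by log2 0.07393 at day 21 and by -1.098 at day 42. The signs differ, but only the day 42 value reached 2-fold, so opposite directions are not shown at this floor. Both differences are bounds, since at day 21 the untreated array, and at day 42 the treated one, had a signal under the floor. With the floor at the 25th percentile the day 21 value was 1.57. The third NOS2 probe set, also with bounds in both comparisons, differed by -0.10 at day 21 and -0.33 at day 42. The second differed by 0.01 at day 21, a bound, and was under the floor on both arrays at day 42. The difference between the days was not tested, as each day had 1 array on each side.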

How the results depend on the processing

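CCL2 rose, and PTX3 and CXCL5 fell, under every alternative in which they were tested except the fit with no filter on low signal; CXCL5 was not tested when an array without TGF-beta3 was left out, since it was then above the floor on 1 array. The mean log2 difference ranged from 3.10 to 5.26 for CCL2, from -6.43 to -3.39 for PTX3 and from -4.98 to -1.36 for CXCL5. When the loaded array replaced the unloaded, NOS2 turned to 0.83 (adjusted p = 0.389 by limma) and IL6 passed. The count of 1954 probe sets called by limma was 1030 with no variance trend and 570 with no day term, and lay between 340 and 3773 when each array in turn was dropped together with the day term (370 and 340 without the day 21 and day 42 arrays lacking TGF-beta3, 3773 and 2137 without those given it). The lone array of an arm is then assumed to vary like the other arm. With no filter it was 0 (2113 at an unadjusted p under 0.05): 6088 probe sets then lay at the floor on all 4 arrays and the prior fell to 0.871 degrees of freedom. With a filter of 1 array above the floor, chosen after seeing the data, it was 1743.

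The counts past 2-fold moved with the floor. Under floors at the 60th percentile and at 100 they went from 4480 to 2508 and 1775 for TGF-beta3 at day 21, from 6861 to 3493 and 2376 at day 42, from 3217 to 1043 and 533 for compression, from 1864 to 817 and 531 for day 21 against day 3, from 1970 to 658 and 298 for day 42 against day 21 without TGF-beta3, and from 5440 to 2366 and 1483 with it. With the floor at the 25th percentile the last 4 were 5992, 3220, 3474 and 8442. Of the alternative values of single genes in pairs of arrays, 15 crossed 2-fold and 165 did not. IL6 at day 21 with TGF-beta3 was log2 0.59, and CXCL5 there -0.98, with the higher floors. The labels give no replicate numbers, and the day term of the limma fit is the only block. Signals near or under the floor limit IL6, CXCL5 and NOS2.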
